A study of Arabidopsis thaliana with 44 samples.

Results

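Roots and shoots of 14-day-old Arabidopsis thaliana plants were compared for the level of each gene and for the m6A fraction at each site. m6A is a methyl group on adenosine inside RNA, and the m6A fraction of a site is the share of RNA copies that carry it, from 0 to 1, as calibrated by the authors on spike-in probes. Of 44 libraries in the series, 8 came from roots and shoots, and the 4 untreated input libraries among them, 2 from roots and 2 from shoots, gave the gene levels. Of 32833 genes in the count table, 19025 had enough reads in these 4 libraries to be tested. Of 188282 m6A sites in the site table, 131189 were read at least 20 times in both organs and were compared, in 13450 genes.

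The study mapped m6A at single bases by m6A-SAC-seq, in which the enzyme MjDim1 labels m6A in polyA RNA so that it is read as a mutation. Plants were of the Col-0 accession and grew on plates of 1/2 MS (Murashige and Skoog) medium at 22 °C, lit for 16 h a day. Roots and shoots carried no mutation and received no treatment, and differed in the organ taken, and which parts of the shoot were harvested is not stated. The methods call the 2 replicates of each organ biological, and the site table holds 1 value per organ in which the replicates are pooled.

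Roots anchor the plant and take up water and ions through root hairs and a tip that a root cap covers, and the endodermis seals the path to the xylem with the Casparian strip and suberin. Shoots hold the green tissue, in which light-harvesting complexes, photosystems and the Calvin cycle fix CO2, behind a waxy cuticle pierced by stomata. In plants m6A is placed by a writer complex with MTA and MTB as its methyltransferase pair and FIP37 and VIR among its partners, is removed by erasers of the ALKBH family and is bound by readers with a YTH domain (the ECT proteins and CPSF30). It lies mostly in the 3′ untranslated region (3'UTR) near the stop codon, often in the motif RAC, where R is A or G.

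The sequences below show where the organs differed most. They are the 5 sites in each direction with the largest difference, 1 per gene, among 4932 RAC sites in 2006 genes with at least 200 reads in both organs, a mark of the authors in at least 1 organ and fractions off both ends of the scale. These 10 sites were chosen after the values were seen, because the largest differences over all sites are ties between 0 and 1. Each line gives 21 bases of the transcript strand, read 5′ to 3′ from the RefSeq TAIR10.1 reference at the coordinates of the deposited table (TAIR10). The capitals mark the 5-base motif, and its central A is the modified base.
AT1G57860 (chr1:21430611-21430631, minus strand, coding sequence): atgtcactAAACGtgccgttg
GS2 (chr5:13833344-13833364, plus strand, 3'UTR): catttttaAAACTcagaattg
SDH3-2 (chr4:15556626-15556646, minus strand, 3'UTR): catttgttAAACTctgtcttg
AT2G02050 (chr2:491923-491943, plus strand, 3'UTR): aagatgcaAAACTcatctttt
AT3G62840 (chr3:23235559-23235579, minus strand, 3'UTR): cagccagtGAACTttgtaata
AT3G14240 (chr3:4742195-4742215, minus strand, coding sequence): acggttgaTAACAgcggtgag
SAG20 (chr3:3443345-3443365, plus strand, 3'UTR): gtatggggAAACCcaaatcga
AT4G19700 (chr4:10713636-10713656, minus strand, coding sequence): gtgcatgtTAACAtgtcttct
AT2G01720 (chr2:318242-318262, minus strand, coding sequence): cccagagtGAACTctgtctac
AUX1 (chr2:15975341-15975361, plus strand, coding sequence): ctatgtggAAACCacagaagt

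The first 5 sites were higher in roots and the last 5 higher in shoots. Of the first 5, 4 lay in a 3'UTR, and of the last 5, 4 lay in coding sequence. This describes the picked sites alone and is no result about regions.

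The labelled organs were checked on marker genes. All 6 root markers of 8 that could be tested were higher in roots in the test described below, which 39.6% of all genes tested were (PHT1;1, COBL9, EXPA7, CASP1, SMB and PLT1), with a summed level of 797 and 744 CPM (the read count of a gene scaled to a common library depth) in the 2 root libraries and 9.25 and 8.60 CPM in the 2 shoot libraries. All 8 shoot markers, among them RBCS1A, FAMA, STM and YAB1, were higher in shoots (38.8% of all genes tested), with sums of 10155 and 9910 CPM against 161 and 140 CPM in roots. Of the markers below the test's minimum, WOX5, which marks the root stem cell niche, had 10 and 9 reads in roots and none in shoots, and the nitrate transporter NRT2.1 had 1 and 0 reads in roots and none in shoots. Of 5 floral organ markers, AP3 and AG had no read in any of the 4 libraries and AP1 was under the test's minimum. SEP3 was read in both shoot libraries at 28.6 and 27.5 CPM and in neither root library, and PI in all 4, at 17.7 and 14.3 CPM in roots and 6.17 and 4.09 CPM in shoots. The input libraries held between 4581455 and 5959069 reads in genes, and reads of chloroplast genes took 0.119% and 0.129% of root libraries against 0.711% and 0.798% of shoot libraries. In bulk RNA, fewer cells of a type and less RNA per cell cannot be told apart.

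Most of the transcriptome differed between the organs. Of 19025 genes tested, 14927 (78.5%) passed an adjusted p of 0.05 in edgeR's quasi-likelihood test with Benjamini-Hochberg adjustment, 7536 (39.6%) of them higher in roots and 7391 (38.8%) higher in shoots. By at least 2-fold, 4703 genes (24.7%) were higher in roots and 4382 (23.0%) higher in shoots. The median log2 fold change of root over shoot was -0.01 over all genes tested. In the MjDim1-treated libraries of the same samples, 14502 of the 14922 called genes that could be tested there were called in the same direction and 0 in the opposite one. Against the other tissues, roots were the highest of all 9 tissues for 3074 (65.4%) of the 4703 genes. Shoots were the highest for 457 (10.4%) of the 4382, and the rosette leaf was the highest for 1561 (35.6%).

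The largest differences among abundant genes were those of single genes of several kinds. RHS13, a root hair specific gene, was read at 209 and 216 CPM in roots and had no read in shoots, which makes it at least 326-fold higher. PCK2, a phosphoenolpyruvate carboxykinase, stood at 146 and 137 CPM in roots and at 0 in shoots, at least 217-fold higher. The β-glucosidase BGLU21 had 1120 CPM in both root libraries and 1.76 and 1.51 CPM in shoots, a log2 fold change of 9.40 ± 0.15 (SE; adjusted p = 1.66e-93 in edgeR). Both root libraries were far above both shoot libraries for each of these genes. The pectin methylesterase PME46 (log2 fold change 9.11), the class III peroxidase PER7 (8.86) and the transporter DTX31 (8.75) followed with the same lack of overlap. In the other direction, AT2G27385 had no read in roots and 131 and 135 CPM in shoots, at least 243-fold higher. RBCS-2B, a small subunit of Rubisco, stood at 3.88 and 3.57 CPM in roots and 1625 and 1549 CPM in shoots (log2 fold change -8.72 ± 0.13 SE, adjusted p = 4.14e-96 in edgeR). The myrosinase TGG1, which hydrolyses glucosinolates, stood at 5.57 and 5.35 CPM in roots and 1743 and 1760 CPM in shoots (log2 fold change -8.32). RLM3 (-9.98), the germin-like gene GER3 (-9.96), the CONSTANS-like gene COL6 (-8.97) and the aldolase FBA5 (-8.45) belonged to the same set.

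**Figure D1:**
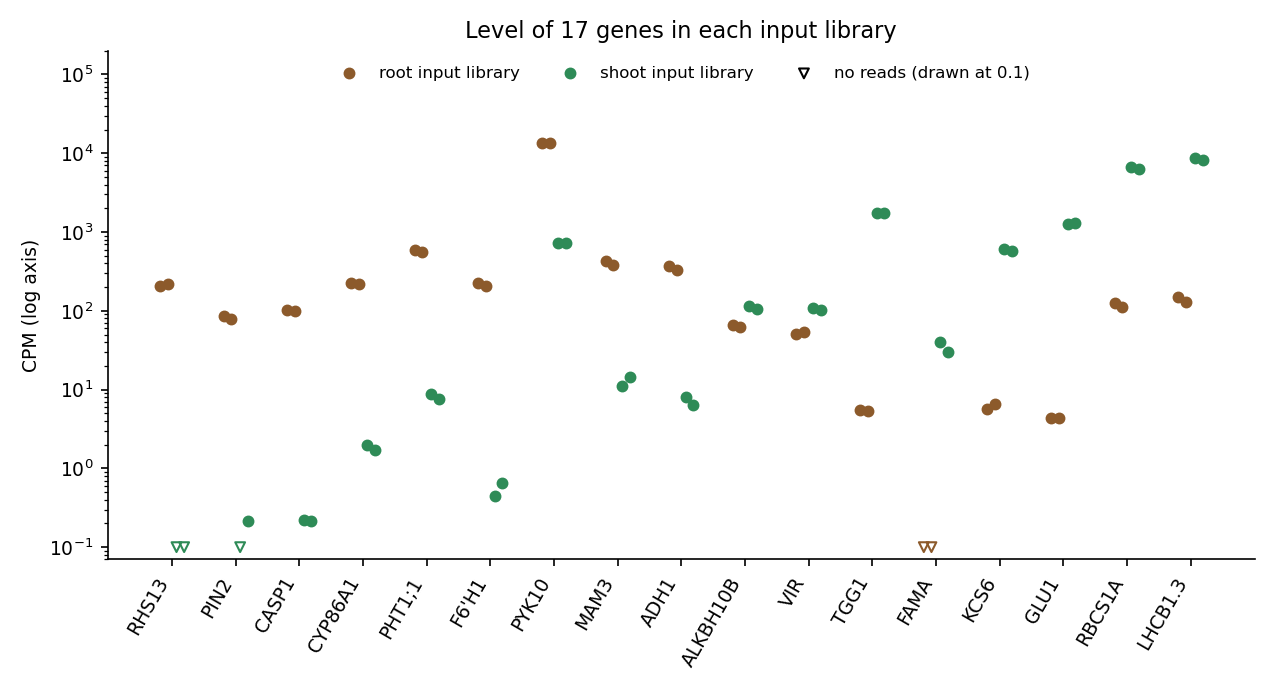
Level of 17 genes in each of the 4 input libraries, in CPM on a log axis. Brown points are the 2 root libraries and green points the 2 shoot libraries, and open triangles drawn at 0.1 stand for libraries with no read. RHS13 had no read in shoots and FAMA none in roots, and the organs do not overlap for any of the 17 genes.

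Genes of root hairs were higher in roots for 17 of 18 members tested, beside 39.6% of all genes tested, and their median log2 fold change was 7.40. With genes that had no read in shoots set at their lower bound, that median was 5.79. The summed level of the list was 894 and 907 CPM in roots and 48.3 and 48.8 CPM in shoots. PRP3, a proline-rich wall protein of root hairs, had 132 and 141 CPM in roots and 0.881 and 0.860 CPM in shoots. The expansin EXPA18, which loosens cell walls, had 75.6 and 83.1 CPM in roots and 0 and 0.215 CPM in shoots. RHD6 and RSL4, transcription factors that start and sustain hair growth, had no read in shoots and were at least 19.5-fold and 27.7-fold higher in roots. The member higher in shoots was GL2 (log2 fold change -0.79), which holds back hair fate in roots and promotes trichomes in leaves. All 4 tested root cap genes were higher in roots, SMB among them at 2.87 and 3.96 CPM with no read in shoots.

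Casparian strip and suberin genes were higher in roots for 23 of 26 members tested, beside 39.6% of all genes tested, with a median log2 fold change of 6.11. CASP1, a membrane protein that sets the place of the Casparian strip, had 101 and 98.9 CPM in roots and 0.220 and 0.215 CPM in shoots, a log2 fold change of 8.69 ± 0.26 (SE; adjusted p = 1.75e-62 in edgeR). CYP86A1, which oxidises fatty acids for suberin, had 227 and 217 CPM in roots against 1.98 and 1.72 CPM in shoots. ASFT, which adds ferulate to suberin, had 182 and 172 CPM against 1.98 and 2.80 CPM. SCR (-0.35), a regulator also at work in the bundle sheath of leaves, and the fatty acid elongase KCS20 (-0.72) were higher in shoots, and FAR1 (0.23) did not pass the test. Stem cell and lateral root genes were higher in roots for 9 of 10 members tested, with a median of 4.39. The auxin exporter PIN2 had 86.6 and 77.7 CPM in roots and 0 and 0.215 CPM in shoots, and SHR had 26.8 and 23.8 CPM against 11.9 and 9.89 CPM. JKD stood at 19.9 and 17.05 CPM in roots and 16.1 and 13.3 CPM in shoots and did not pass the test (adjusted p = 0.0602 in edgeR).

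Transporters and pumps for mineral uptake were higher in roots for 21 of 24 members tested, beside 39.6% of all genes tested. Their median log2 fold change was 2.62. The proton pump AHA2 was the most abundant, at 1563 and 1422 CPM in roots and 547 and 538 CPM in shoots (log2 fold change 1.46). The phosphate transporter PHT1;1 had 595 and 552 CPM in roots and 8.81 and 7.53 CPM in shoots (6.13), and reads of near-identical PHT1 genes may be split between them. NPF7.3 (NRT1.5), which loads nitrate into the xylem, had 368 and 338 CPM against 7.27 and 6.67 CPM. The nitrate transceptor NRT1.1 (NPF6.3) differed far less, with 220 and 206 CPM in roots and 141 CPM in both shoot libraries (0.60). The ammonium transporters AMT1;1 (-0.61) and AMT2;1 (-0.64) were higher in shoots. Of the iron list, 5 of 7 members tested were higher in roots. F6′H1, which makes scopoletin, the precursor of secreted iron-mobilising coumarins, had 223 and 206 CPM in roots and 0.441 and 0.645 CPM in shoots. The coumarin exporter ABCG37 (PDR9) had 131 and 141 CPM in roots and 5.29 and 5.16 CPM in shoots. BTS, a ubiquitin ligase that restrains the iron response, was higher in shoots (log2 fold change -1.26).

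**Figure D2:**
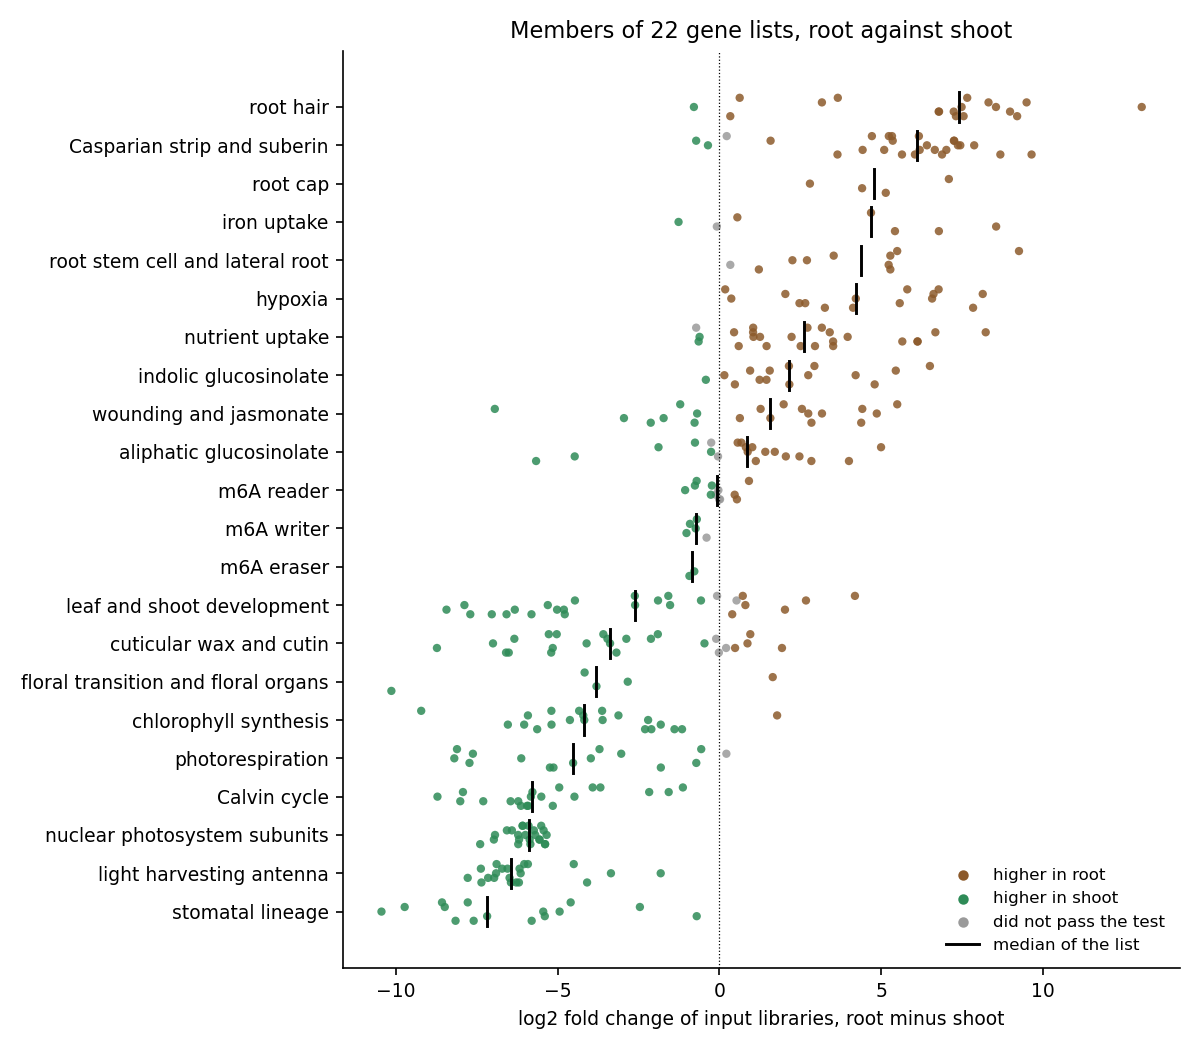
Log2 fold change of root over shoot for each tested member of 22 gene lists, sorted by the list's median (black bar). Brown members were higher in roots, green members higher in shoots and grey members did not pass the test. Fitted values are drawn also for genes with no read in an organ, which are no bound. By these fitted values the root hair list is at the top (7.40) and the stomatal list at the bottom (-7.18). With unread genes at their bounds the order turns, with root hair at 5.79 below Casparian strip and suberin at 5.85, and stomata at -4.60 above the antenna list at -6.45.

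Photosynthetic genes were higher in shoots almost without exception. All 21 light-harvesting antenna genes, all 23 nuclear photosystem genes and all 20 Calvin cycle genes were higher in shoots, beside 38.8% of all genes tested, with median log2 fold changes of -6.45, -5.90 and -5.81. The antenna genes together made up 52308 and 52811 CPM of the shoot libraries, and 718 and 550 CPM of the root libraries. LHCB1.3, a protein of the main antenna of photosystem II, had 151 and 128 CPM in roots and 8666 and 8315 CPM in shoots (-5.92 ± 0.10 SE, adjusted p = 3.79e-90 in edgeR). The Rubisco small subunit RBCS1A had 125 and 111 CPM against 6625 and 6384 CPM (-5.78), and Rubisco activase RCA 63.3 and 41.8 CPM against 4753 and 4590 CPM (-6.46). Small subunit genes and the LHCB1 and LHCB2 genes are near-identical copies, so that their single values are uncertain. LHCB4.3 (-1.82) and the triose phosphate isomerase TPI (-1.13) were the members of the antenna and Calvin lists that differed least.

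Photorespiration followed the Calvin cycle, with 14 of 15 tested members higher in shoots, beside 38.8% of all genes tested. Their median was -4.52 (-3.98 with PGLP1, which had no read in roots, at its bound). The ferredoxin-dependent glutamate synthase GLU1 had 4.39 and 4.36 CPM in roots and 1276 and 1311 CPM in shoots (-8.20). Chlorophyll synthesis genes were higher in shoots for 20 of 21. CHLH, a subunit of magnesium chelatase, had 46.9 and 43.8 CPM in roots and 1675 and 1652 CPM in shoots (-5.19). The listed glutamyl-tRNA reductase genes, HEMA1 and HEMA2, which open the pathway and also feed haem, were set apart by sign. HEMA1 had 163 and 165 CPM in roots and 414 and 445 CPM in shoots (-1.39), and HEMA2 was higher in roots (1.79).

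Genes of the leaf surface separated the organs in the same way. All 15 tested stomatal genes were higher in shoots, beside 38.8% of all genes tested. Their median log2 fold change was -7.18 (-4.60 with the 7 genes that had no read in roots at their bounds). FAMA, which drives the last step of guard cell fate, had no read in roots and 39.7 and 29.9 CPM in shoots, at least 63.4-fold higher. The receptor kinase ERECTA had 0.169 and 0.793 CPM in roots and 70.3 and 69.5 CPM in shoots. Cuticle genes were higher in shoots for 18 of 25, among them the wax elongase KCS6 (CUT1) at 5.74 and 6.54 CPM against 609 and 580 CPM. CER4 (1.94), KCR1 (0.96), GPAT6 (0.87) and CYP86A4 (0.49) were higher in roots. Leaf and shoot development genes were mixed, with 18 of 26 higher in shoots and 6 higher in roots. ATML1, which sets epidermal identity in shoots, had 2.19 and 1.19 CPM in roots and 139 and 143 CPM in shoots, and all 4 YABBY genes tested lay between -7.89 and -6.58. GL3 (4.19), AN3 (2.68), KNAT6 (2.03), PHB (0.80), KNAT1 (0.72) and REV (0.40) were higher in roots. CLV1 stood at 81.2 and 83.7 CPM in roots and 87.3 and 85.8 CPM in shoots and did not pass the test (adjusted p = 0.454 in edgeR).

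Glucosinolates, the sulphur defence compounds of this plant family, had most genes of both classes higher in roots. Indolic genes were higher in roots for 14 of 15, beside 39.6% of all genes tested, with summed levels of 18319 and 18048 CPM in roots and 3041 and 3060 CPM in shoots. PYK10 (BGLU23), a β-glucosidase stored in ER bodies, made up most of that sum, at 13328 and 13359 CPM in roots against 716 and 721 CPM in shoots (4.21 ± 0.09 SE, adjusted p = 4.73e-77 in edgeR). Its relative BGLU21 may share reads with it. CYP83B1, which commits the pathway to indolic products, had 877 and 838 CPM in roots and 284 and 298 CPM in shoots (1.56). PEN3 (ABCG36), a transporter at the cell surface, passed by a small margin only, at 1758 and 1554 CPM against 1485 and 1494 CPM (0.15, adjusted p = 0.0452 in edgeR). PEN2 was higher in shoots (-0.42). Aliphatic genes were higher in roots for 13 of 20 and higher in shoots for 5, beside 39.6% and 38.8% of all genes tested. Their summed levels were 2855 and 2706 CPM in roots and 1013 and 992 CPM in shoots. MAM3, which makes long side chains, had 430 and 386 CPM in roots and 11.0 and 14.4 CPM in shoots (5.001), whereas MYB29 (-5.67) and CYP79F1 (-4.48) were higher in shoots and CYP79F2 (2.85) in roots. CYP79F1 and CYP79F2 are neighbouring copies whose reads may be shared.

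Genes that respond to handling were examined too. All 15 tested genes of the hypoxia response were higher in roots, beside 39.6% of all genes tested. Their summed levels were 2273 and 2112 CPM against 307 and 305 CPM in shoots. ADH1, the alcohol dehydrogenase of fermentation, had 367 and 332 CPM in roots and 8.15 and 6.45 CPM in shoots (5.58), and the sucrose synthase SUS4 had 317 and 288 CPM against 1.98 and 4.09 CPM. Of 19 wounding and jasmonate genes, 12 were higher in roots and 7 higher in shoots, beside 39.6% and 38.8% of all genes tested. The jasmonate repressor JAZ1 had 414 and 436 CPM in roots and 48.7 and 45.4 CPM in shoots (3.17), and the biosynthesis gene AOC3 483 and 472 CPM against 16.1 and 16.6 CPM. LOX2 (-6.95), AOC2 (-2.95) and the storage protein VSP2 (-1.72) were higher in shoots. The part of these genes in the other differences was not tested. Of the floral list, 10 of 15 members were under the test's minimum, and SOC1, a regulator of flowering, had 8.44 and 10.7 CPM in roots and 71.8 and 63.9 CPM in shoots. PI (1.65) was higher in roots, at 17.7 and 14.3 CPM against 6.17 and 4.09 CPM.

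The genes of the m6A machinery differed by small factors. Of 5 writer genes tested, 4 were higher in shoots, and both eraser genes tested were higher in shoots, beside 38.8% of all genes tested. VIR had 51.5 and 53.1 CPM in roots and 110 and 102 CPM in shoots (log2 fold change -1.02 ± 0.09 SE, adjusted p = 5.43e-20 in edgeR). MTB had 19.2 and 16.8 CPM in roots and 36.6 and 31.6 CPM in shoots (-0.91, adjusted p = 4.58e-09 in edgeR). MTA had 13.8 and 13.1 CPM in roots and 24.5 and 19.4 CPM in shoots (-0.70, adjusted p = 8.04e-05 in edgeR). For each of these 3 genes, both shoot libraries lay above both root libraries. FIP37 stood at 11.3 and 10.9 CPM in roots and 17.6 and 19.4 CPM in shoots (-0.73, adjusted p = 0.000122 in edgeR), but in the treated libraries its log2 fold change was -0.01 with an adjusted p of 0.944 in edgeR. FIO1, which methylates the spliceosomal U6 RNA, did not pass the test in the input libraries (-0.40, adjusted p = 0.123 in edgeR) and was higher in shoots in the treated ones (-0.65, adjusted p = 0.000122 in edgeR). The eraser ALKBH10B had 65.1 and 62.0 CPM in roots and 113 and 105 CPM in shoots (-0.78, adjusted p = 2.38e-14 in edgeR). ALKBH9B (-0.93) was called with few reads, at 4.56 and 4.96 CPM against 9.92 and 8.17 CPM, and its call was lost in DESeq2 (adjusted p = 0.0589).

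Of 12 reader genes, 5 were higher in shoots, 3 higher in roots and 4 did not pass, beside 38.8% and 39.6% of all genes tested. The calls of ECT3, ECT7 and ECT9 were lost in some alternatives. ECT2, the most abundant reader, had 295 and 277 CPM in roots and 494 and 473 CPM in shoots (-0.76, adjusted p = 5.13e-19 in edgeR). CPSF30 (-1.06) and ECT4 (-0.70) were also higher in shoots, as were ECT3 (-0.27, adjusted p = 0.00806 in edgeR) and ECT7 (-0.23, adjusted p = 0.0484 in edgeR). ECT6 was higher in roots, at 23.8 and 23.0 CPM against 12.8 and 12.04 CPM (0.92, adjusted p = 3.73e-07 in edgeR), as was ECT8 (0.54). ECT9 (0.47, adjusted p = 0.0346 in edgeR) was called in roots at 12.2 and 12.7 CPM against 8.81 and 9.03 CPM.

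m6A fractions were lower in roots than in shoots at most sites. Over 131189 sites the median fraction was 0.0742 in roots and 0.135 in shoots, and 68.3% of sites were higher in shoots and 25.9% higher in roots. The median difference of root minus shoot was -0.0431, with quartiles of -0.116 and 0.00281. A difference of 0.2 or more was found at 17740 sites (13.5%) in the direction of shoots and 8496 sites (6.48%) in the direction of roots. As the fractions hold 1 pooled value per organ, the difference between the organs could not be set against a spread between replicates, and no test was made. The median depth was 122 reads in roots and 74 reads in shoots. The share higher in shoots was 65.7% with a minimum of 10 reads, 73.8% with 50 and 79.1% with 100.

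The difference was in coding sequence more than in the 3'UTR. At 83409 sites of the coding sequence the median fraction was 0.0542 in roots and 0.112 in shoots, and 75.5% of sites were higher in shoots. At 40668 sites of the 3'UTR the medians were 0.276 and 0.290, and 53.2% were higher in shoots. At 3868 sites of the 5'UTR the medians were 0.0509 and 0.111. The 5'UTR and the coding sequence thus had roughly the same low levels and the same gap, while the quartiles of the organs nearly coincided in the 3'UTR. The 3'UTR difference depended on depth more than that of coding sequence. With minima of 10, 20, 50 and 100 reads its median was -0.0068, -0.0126, -0.0220 and -0.0272, with 61.3% of sites higher in shoots at 100 reads, while in coding sequence it stayed between -0.0504 and -0.0498. In coding sequence 2158 sites were higher in roots by 0.2 or more and 10141 higher in shoots, and in the 3'UTR the numbers were 5931 and 6573.

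**Figure D3:**
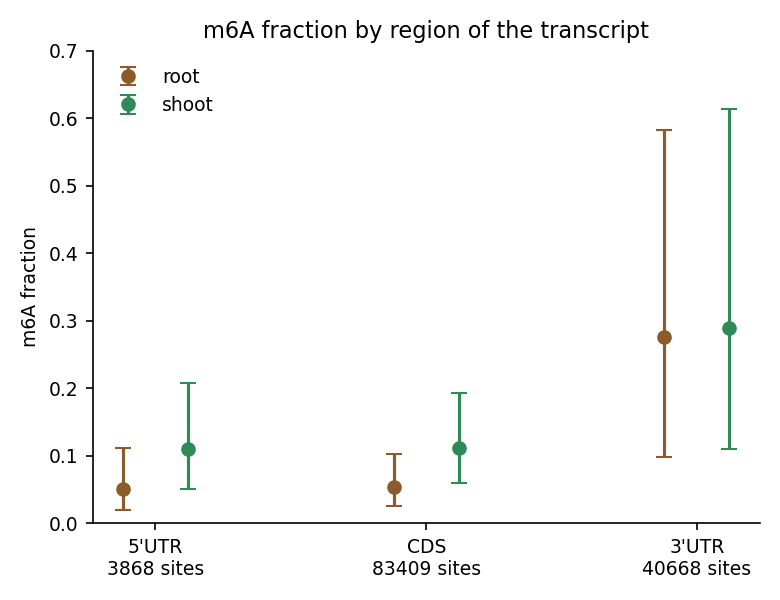
m6A fraction in roots (brown) and shoots (green) by region of the transcript. Points are medians over sites and bars run from the lower to the upper quartile of the sites, which is a spread between sites and not between replicates. The medians are 0.0542 and 0.112 in coding sequence (CDS) and 0.276 and 0.290 in the 3'UTR.

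With all motifs pooled, the step lay at the stop codon. In windows of 100 nt before the stop codon the median difference stayed between -0.0548 and -0.0462 as far back as the window that starts at -1499 nt. In the first 100 nt after it the medians were 0.232 in roots and 0.256 in shoots, with a median difference of -0.0206. In the next window the difference was -0.0074, and from 201 nt onward it was 0. With motifs pooled too, the same order was seen inside most genes. In 5494 genes with at least 3 sites in each of the 2 regions, the mean difference in coding sequence lay below that in the 3'UTR in 3666 (66.7%). The mean difference in coding sequence was below 0 in 92.2% of genes and that in the 3'UTR in 56.99%, with medians of -0.0654 and -0.0192.

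**Figure D4:**
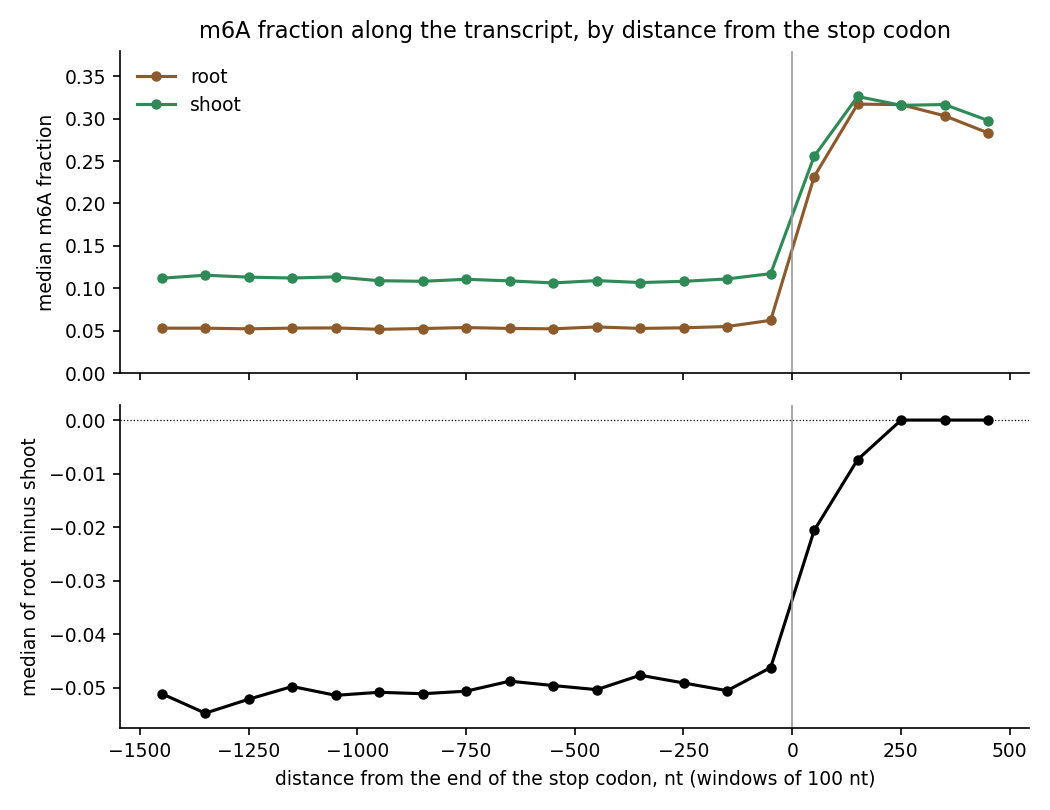
Median m6A fraction in roots (brown) and shoots (green), above, and the median of root minus shoot over the same sites, below, in windows of 100 nt by distance from the end of the stop codon. With all motifs pooled, the gap lies between -0.0548 and -0.0462 in every window before the stop codon and closes to 0 from 201 nt after it.

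By motif, the coding sequence differed in RAC sites (median difference -0.0545), in GAT sites (-0.0518) and in other motifs (-0.0428) alike. In the 3'UTR the median difference was 0 in RAC sites and -0.0337 in GAT sites. The value of 0 for RAC sites pooled motifs that differed. Among RAC motifs of 5 bases with at least 300 sites in the 3'UTR, median differences lay between -0.0577 and 0 where R is G. They lay between 0 and 0.011 where R is A. Of 45 motifs of 5 bases with at least 300 sites in coding sequence, 43 had a median difference below 0, against 21 of 42 in the 3'UTR. The mix of motifs differed, with 7490 AGATG and 545 AAACC sites in coding sequence and 1084 and 1157 in the 3'UTR. At AGATG sites the median difference was -0.0579 in coding sequence and -0.0557 in the 3'UTR, and at AGACG sites -0.0651 and -0.0550. At AAACC sites it was -0.118 and 0, and at AGACA sites -0.0789 and 0. The part of the motif mix in the step at the stop codon was not tested. By the mean level in the other 7 tissues, coding sites with a level below 0.1 differed by a median of -0.0381, and those between 0.6 and 0.8 by -0.333, with medians of 0.353 in roots and 0.769 in shoots. At coding sites between 0.8 and 1.0 the median difference was -0.243. Sites of the 3'UTR differed by -0.0276 below 0.1 and by -0.0071 between 0.6 and 0.8.

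The authors mark, per organ, the sites that passed their calling. Both organs carried the mark at 20578 sites, roots alone at 13798 and shoots alone at 32549. Of the sites marked in roots alone, 57.7% lay in the 3'UTR, and of those marked in shoots alone, 78.3% lay in coding sequence. Region shares were taken over a larger set, all sites of the 5'UTR, coding sequence and 3'UTR with the organ's mark and at least 20 reads in that organ alone. Of these, 28673 lay in the 3'UTR and 13498 in coding sequence in roots, and 20839 and 34645 in shoots. The 3'UTR held 78.6% of the summed fraction in roots and 53.3% in shoots. Coding sequence held 20.1% in roots and 44.5% in shoots. The median fraction of these marked coding sites was 0.192 in roots and 0.196 in shoots, and that of the 3'UTR sites 0.529 and 0.549. The shares thus follow mainly the numbers of marked sites. Among compared 3'UTR sites the median depth was 120 reads in roots and 62 in shoots, and its part in the marks was not tested. Since the mark was set within each organ, sites marked in one alone had to differ. At sites marked in both organs the median difference was -0.0524. At 64264 sites marked in neither organ the median was 0.0456 in roots and 0.0738 in shoots, with a median difference of -0.0237. RNA of the chloroplast (366 sites, -0.0544) and of the mitochondrion (328 sites, -0.0798) differed in the same direction as nuclear coding sequence. The part of an unequal background of the labelling in the difference was not tested.

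Among the 9 tissues, roots had the lowest median fraction in coding sequence, 0.0535 at 48139 coding sites with enough reads in every tissue. The rosette leaf came next with 0.0628, shoots were the sixth from below with 0.108, and the silique was the highest with 0.135. In the 3'UTR the tissues lay closer together, between 0.272 and 0.338, with roots at 0.274. In coding sequence the rosette leaf thus stood nearer to roots than to shoots. Each tissue has 1 pooled value here, so that the order has no replicate check.

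Expression and m6A moved with little relation to each other. In coding sequence the median difference was -0.0488 in genes higher in roots, -0.0520 in genes higher in shoots and -0.0492 in genes that were not called. Of 9713 nuclear genes with at least 5 sites, 80.9% had a mean difference below 0, with a median of -0.0548. A mean difference of -0.1 or lower was found in 2307 genes (23.8%) and one of 0.1 or higher in 282 (2.90%). Across the 9669 of these genes with a measured fold change, Spearman's rho between the fold change and the difference was 0.04. Genes are not independent replicates, and both measures come from libraries of the same samples.

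**Figure D5:**
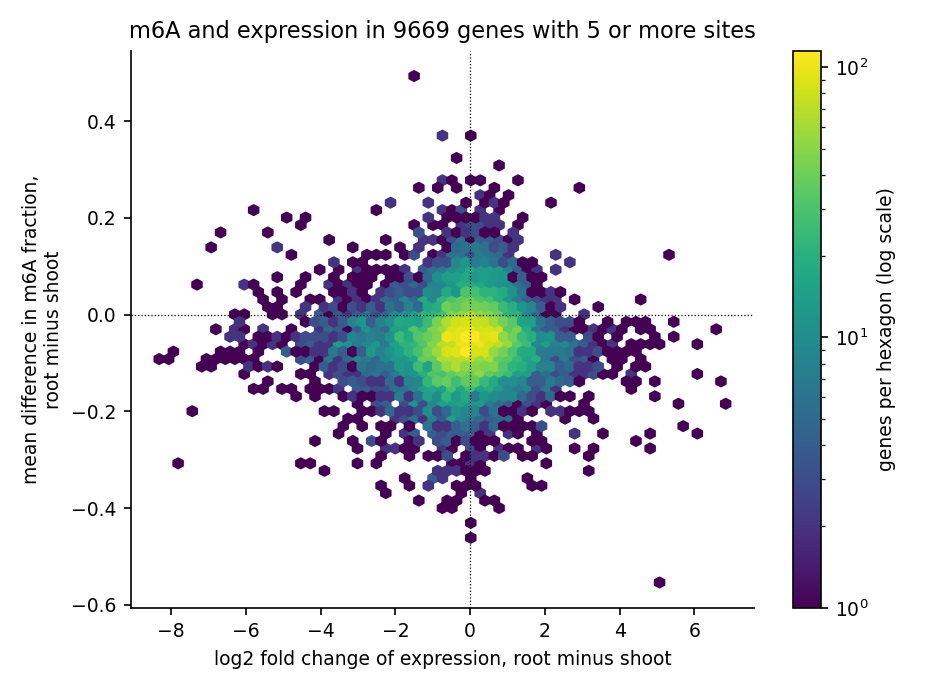
Mean difference in m6A fraction of root minus shoot against the log2 fold change of expression of root over shoot, for 9669 nuclear genes with at least 5 sites. Colour gives the number of genes per hexagon on a log scale. Most genes lie below 0 on the vertical axis over the whole range of fold changes, and rho is 0.04.

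Examples of genes with very different expression had lower fractions in roots, and they are no test of the pattern. All 10 sites of PYK10 lay in coding sequence and all were lower in roots, with fractions of 0.0506 to 0.129 in roots and 0.0999 to 0.238 in shoots, at depths of at least 22973 reads in roots and 720 in shoots. All 19 sites of CYP83B1, which was higher in roots too, were lower in roots, with fractions of 0.0291 to 0.131 against 0.0509 to 0.293. PSBO2, a photosystem II subunit that was higher in shoots (log2 fold change -5.39), had all 15 sites lower in roots. Its sites were read only 28 to 253 times in roots, against 555 to 6133 times in shoots, and some of its root fractions stood at 0. The site of PYK10 and that of CYP83B1 below are those with the highest root fraction in each gene, shown because both were read deeply in both organs, with the motif in capitals as above.
PYK10 (chr3:2841634-2841654, minus strand, at -625 nt from the stop codon, 0.129 in roots and 0.238 in shoots): atcatgaaAGACAttgttgga
CYP83B1 (chr4:15274043-15274063, minus strand, at -376 nt from the stop codon, 0.131 in roots and 0.255 in shoots): actatcgcAGACGcaaagata

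Members of most lists had lower mean fractions in roots, as most genes did, and shares near that of all genes say nothing particular about a list. Of list members with at least 5 sites, mean differences were below 0 in 11 of 11 nutrient genes, 9 of 9 indolic glucosinolate genes, 14 of 16 photosystem genes, 14 of 16 chlorophyll genes and 11 of 13 Calvin cycle genes, beside 80.9% of all genes. Photorespiration genes were split, with 6 of 11 below 0, cuticle genes had 9 of 14 and antenna genes 9 of 13. The transcripts of the m6A machinery carried m6A themselves. FIP37 had a mean of 0.107 in roots and 0.320 in shoots over 10 sites, at median depths of 83.0 and 40.5 reads. Without 1 site that stood at 0 in roots and 1 in shoots, a setting chosen after seeing the data, the FIP37 means were 0.119 and 0.244. MTB had 0.124 and 0.247 over 13 sites. MTA stood at 0.0979 and 0.111 over 12 sites, and VIR at 0.215 and 0.191 over 28 sites. Of 9 reader genes with at least 5 sites, 8 had a lower mean in roots, beside 80.9% of all genes.

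The sites printed at the outset show the extremes at good depth. In the pool they come from, 87.3% of sites were higher in shoots, with a median difference of -0.0684. The largest difference was in AT3G14240, a subtilase, with 0.184 in roots (252 reads) and 0.928 in shoots (370 reads), at -568 nt from the stop codon. SAG20, a senescence-associated gene, had 0.247 (1608 reads) and 0.916 (532 reads) in its 3'UTR. AUX1, which imports auxin into cells, had 0.121 in roots (656 reads) and 0.730 in shoots (334 reads), at -675 nt from the stop codon. Its expression did not pass the test, at a mean of 163 CPM in roots and 156 CPM in shoots (adjusted p = 0.449 in edgeR), so that here the m6A fraction differed without a called difference in level. AT4G19700 (0.307 and 0.975) and AT2G01720, a subunit of the oligosaccharyl transferase (0.316 and 0.984), were the other sites higher in shoots. In the rosette leaf these 5 sites were between 0.198 and 0.391.

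Of the sites higher in roots, GS2, the plastid glutamine synthetase, had 0.915 in roots (287 reads) and 0.483 in shoots (1696 reads), 115 nt after the stop codon. GS2 was itself higher in shoots by expression (log2 fold change -3.40). AT2G02050, a subunit of mitochondrial complex I, had 0.959 (1369 reads) and 0.537 (224 reads), and SDH3-2, a subunit of succinate dehydrogenase, had 0.548 (1126 reads) and 0.118 (372 reads). The depth of SDH3-2 was high for its level, a mean of 16.7 CPM in roots and 12.8 CPM in shoots. AT2G02050 had 120 and 40.6 CPM. Whether reads of another gene are counted at the SDH3-2 site was not tested. AT3G62840, a small nuclear ribonucleoprotein, had 0.717 and 0.298. AT1G57860, annotated as a translation protein with an SH3-like fold, had 0.790 and 0.347, and reads of near-identical copies of it may be shared.

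By gene, the mean difference was largest in favour of roots in AT5G38840 (0.778 in roots and 0.285 in shoots over 5 sites), BAM7 (0.462 and 0.0833), AT1G06470 (0.413 and 0.0449) and MAF3, a relative of the flowering repressor FLC (0.639 and 0.276). RID2, AT3G49550, AT5G02502 and ERA1 followed, with differences of 0.323 to 0.277. In favour of shoots it was largest in NIT3, a nitrilase (0.145 and 0.699 over 5 sites), AT1G77230 (0.0542 and 0.513) and AT1G49350 (0.0132 and 0.442). AT2G02765, AT1G33170, AT1G16250, AT2G25737 and AT5G67280 followed, with differences of -0.405 to -0.389. Single sites carried some of these means. In BAM7 the mean difference was 0.379 and the median over its sites 0.0354, and in AT5G67280 they were -0.389 and -0.109. The means rest on 5 to 9 sites each, and most of these genes were read little in shoots. Their median depth in shoots was 22 reads in AT1G33170, 25 in AT1G49350, 27 in NIT3 and at most 32 in most others. It was higher in AT5G02502 (83), AT1G06470 (53.5) and AT5G67280 (49). Over all compared sites it was 74 reads.

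Without the limits on motif and ends of the scale, the largest differences were ties. Of 41229 nuclear sites with at least 50 reads in both organs and a mark in at least 1, 159 stood at 1 in roots and 0 in shoots, and 216 at 0 in roots and 1 in shoots. Of these, 153 and 202 had a motif that is neither RAC nor GAT. Over all compared sites, 13.8% stood at 0 in roots and 11.2% in shoots, and 3.91% and 5.45% stood at 1. In AT1G11820, a site of the 3'UTR was at 1 in roots and 0 in shoots and a site of the coding sequence was at 0 in roots and 1 in shoots.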

How the data were processed

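Root and shoot polyA RNA of 14-day-old Col-0 plants was sequenced as input and as MjDim1-treated libraries, 2 replicates each. Per the methods, reads went through the authors' m6A-SACseq pipeline with TAIR10 as the assembly. Aligner, counter, strand setting and versions: not given in the sources used here. The authors deposited the raw count of reads per gene and library, and for each site a depth (count of reads), the m6A fraction calibrated on spike-in probes and a mark of called sites, each pooled over replicates.

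Counts of the input libraries were fitted with edgeR 4.0.16 in R 4.3.3 (filterByExpr, TMM, quasi-likelihood test, Benjamini-Hochberg, 0.05), with limma 3.58.1 and DESeq2 1.42.0 loaded for alternatives. CPM are TMM-scaled. A lower bound of a fold sets an organ with no read at 3 counts per library. The fit was also run on simulated counts at these library depths (18611 genes tested), with a set spread between replicates and few genes changed. It recovered 66 of 100 genes changed by a log2 fold of 1 and 100 of 100 changed by 2, with 13 unchanged genes called. In the data 78.5% of genes were called, so that these rates do not carry over to this comparison. Sites were summarised without a test in Python 3.11.15 (numpy 2.4.6, pandas 2.3.3), and figures were drawn with matplotlib 3.10.9. The mark's effect, depth, motif and organelle sites were varied.

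Members and lists were chosen with earlier results of these data known. The lists hold 433 names, of which 407 matched a gene. Genes were named as the 12 with the largest log2 fold change in each direction among called genes without overlap at 100 CPM or more in the higher organ, up to 4 members per list with the highest CPM, and all members of the m6A lists. Other list members were named after their values were seen. Sites were named as the 8 largest differences in each direction at 50 reads or more, and genes by m6A as the 8 largest mean differences over at least 5 sites. Bases were read from the RefSeq TAIR10.1 genome, where the deposited motif matched at 100% of nuclear sites and at 2 of 405 mitochondrial sites. Distances to the stop codon used the annotation of that genome, in which 99.6% of placed sites had the same transcript position. Columns of the other tissues were used to rank tissues, to bin sites by their level elsewhere, to give named sites context, and in alternatives. P-values rest on the spread between 2 replicates per organ, which edgeR moderates across genes. Input replicates differed by little more than counting noise, with a chi-square per degree of freedom of 1.64 in roots and 1.36 in shoots. How much of the variation between plants they hold was not tested. An exact permutation test of 2 against 2 cannot go below 0.333.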

Additional observations from a re-analysis of the deposited data

How the results depend on the processing

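The counts of genes higher in roots (7536) and shoots (7391) kept within 1.5 times under every alternative run, from 5858 to 8680 and from 5777 to 8733, with DESeq2 giving 6513 and 5777. Leaving out 1 library gave 7103 to 7229 and 6881 to 6940 genes, and by at least 2-fold 4665 to 4860 and 4387 to 4472. Deviations between replicates were not correlated between the organs (r = 0.03). As they hold little more than counting noise, this cannot decide whether replicate numbers pair the samples. A replicate block gave 7545 and 7383 genes. Of 109 called named genes, 103 kept their call in every alternative in which they were tested, and none reversed. The 6 that lost it in some were PEN3, FIP37, ALKBH9B, ECT3, ECT7 and ECT9. Of 572 counts over lists, 24 moved by more than 1.5 times. With a minimum of 10 CPM, root cap genes higher in roots went from 4 to 0, stem cell genes from 9 to 4 and stomatal genes higher in shoots from 15 to 9, as fewer genes were tested. Without the filter and in the treated libraries, stem cell genes higher in roots numbered 15. Iron genes higher in roots went from 5 to 8 in those settings and with all 18 input libraries, and those higher in shoots from 1 to 5, 3 and 5. Readers higher in shoots went from 5 to 3 and erasers from 2 to 1 in DESeq2. The others were changes of a single gene in the root hair, Casparian, photorespiration, iron and eraser lists, readers at 3 without root replicate 1, and floral genes higher in shoots at 2 and 7 for 4. Of the 8 named genes that did not pass the test, 6 were called in the treated libraries (FIO1, ECT1, ECT11, CLV1 and NAS1 higher in shoots, JKD higher in roots), JKD also in 4 other settings, 10 gained calls in all. Of the 8, 4 changed sign in log2 fold change. CLV1 was 0.000157 with all 18 input libraries. ECT5 was 0.000949 in DESeq2, 0.00431 with DESeq2 size factors and 0.0419 with 18 libraries. ECT11 was 0.0151, 0.0286 and 0.0665 in the same settings and 0.00924 with library size alone. Without 1 library ECT5 ranged from -0.237 to 0.158, ECT10 from -0.126 to 0.184 and ECT11 from -0.319 to 0.229.

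The median difference in m6A over sites was -0.0819 at sites marked in roots or shoots. In coding sequence it was -0.102 at those sites, -0.0903 at sites marked in both and -0.0254 at sites marked in another tissue only, a setting chosen after seeing the data, in which the median over genes was -0.0296. The direction did not change in any of these. No leave-one-out or paired analysis was possible for m6A because the fractions are pooled over replicates. At the site minimum of 20 reads a single fraction is coarse, and depth was lower in shoots. The cause of these shifts was not tested.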
